A study of Stylophora pistillata with 6 samples.

Results

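Gene models of the cryptochrome and photolyase family were followed through day and night in the reef coral Stylophora pistillata. The family is taken here as the 6 gene models that the study's list of modulated genes names CRY1, CRYD or PHR. There are 4 named CRY1 (Spis11906, Spis15188.t1, Spis11907.t1 and Spis21780), with CRYD (Spis6955) and PHR (Spis13171) as the others, out of 25769 gene models in the count table. Each name is that of the best protein match in another animal. For CRY1 these animals are the European robin (Spis11906), the garden warbler (Spis15188.t1 and Spis11907.t1) and human (Spis21780), for CRYD the zebrafish and for PHR the potoroo, a marsupial. The list was drawn up by the authors from a day against night comparison of these same libraries, so each difference between day and night below describes the gene models and is not tested again.

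Poly(A) RNA was sequenced from branch apex tissue of microcolonies in 3 day and 3 night libraries. The microcolonies came from 3 syngenic parent colonies and had hung for 10 days in an aquarium at 25 °C, a salinity of 38 and 175 µmol photons per square metre and second. Light and darkness lasted 12 h each. Day samples were frozen when 1 h of light remained, and night samples when 1 h of darkness remained. No drug, mutation or other treatment separated the groups. The labels do not say which parent colony gave which library, so replicate spread may include both colony and technical differences. The coral also houses algae, and the authors mapped the reads both to coral and to algal gene models. Only the counts on coral gene models are used here. Whether algal reads fell on coral gene models was not checked. Depth, as reads counted on gene models of the coral, was 1552480 to 6619275 by day and 1916270 to 3062255 by night, and day replicate 3 was the deepest library. In all, 29471 reads fell on the 6 gene models. Levels are CPM, read counts scaled to a common library size with edgeR's TMM factors. They are not corrected for coding length, so a level is compared between libraries and never between gene models. In whole tissue, fewer cells of a type and less RNA per cell cannot be told apart.

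Cryptochromes and photolyases are related flavoproteins that bind FAD and absorb blue light. Photolyases use that light to split pyrimidine dimers which ultraviolet light leaves in DNA, a repair enzyme that placental mammals have lost. Animal cryptochromes do not repair DNA in this way. In flies, cryptochrome is a photoreceptor that resets the clock, and in vertebrates cryptochromes repress the CLOCK and BMAL1 pair. Cryptochrome DASH lies between both kinds, with photolyase activity reported on single-stranded DNA. Corals lack eyes, and cryptochromes are among the candidates for how their tissue senses light.

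The only stretches of sequence under these names in the sources used here are the products of the study's quantitative PCR assays, one each for CRY1, CRYD and PHR. They show what the assays of those names amplify, 5′ to 3′, with the primer ends in capitals. None of the products was matched to a gene model here. CRY1 and CRYD are given in the direction of the forward primer and PHR in that of the reverse primer.
CRY1: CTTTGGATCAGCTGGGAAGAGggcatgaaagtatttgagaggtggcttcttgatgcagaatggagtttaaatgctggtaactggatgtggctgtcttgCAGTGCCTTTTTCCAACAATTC
CRYD: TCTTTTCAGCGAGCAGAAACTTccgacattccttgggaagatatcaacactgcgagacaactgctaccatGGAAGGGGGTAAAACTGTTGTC
PHR: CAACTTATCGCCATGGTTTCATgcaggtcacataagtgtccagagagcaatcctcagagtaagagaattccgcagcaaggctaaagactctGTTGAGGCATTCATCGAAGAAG
The products are 120, 92 and 113 bases long. The PHR product was free of stop codons in only 1 of 6 reading frames, which lies on the strand printed, while CRY1 and CRYD each had 2 such frames. The list of primers gives the CRY1 assay no gene model, and its product was not matched to any of the 4 here. The study sets that assay beside the sequencing result of Spis15188.t1, judged from the fold change printed with it. The assay values were not analysed here.

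The family as a whole took up 0.217% ± 0.0173 of the coral reads by day and 0.0671% ± 0.00298 by night (SD, n = 3). Of the 6 gene models, 3 were higher in every day library than in any night library, and 3 were lower in every day library. Both directions occurred among gene models named CRY1, with 3 higher and Spis21780 lower by day. No gene model of the family overlapped between the groups. Over all 24180 gene models with a read, 10.1% did not overlap, 5.05% higher and 5.04% lower by day. The median log2 fold change of the family was 0.23, against 0.00 over all gene models. With 3 members on each side, this median only falls between Spis11907.t1 (1.36) and CRYD (-0.89). It describes no member and no shift of the family. In edgeR's quasi-likelihood fit 6 of 6 passed an adjusted p of 0.05 against 0.666% of all gene models. The 3 higher by day stand beside a background of 0.256% and the 3 lower by day beside one of 0.409%. With the replicate number as a block 6 of 6 passed against 1.69% of all. Since the family was chosen on this contrast, nothing is read from these counts. CRYD did not pass in 9 of 15 alternative settings, among them those without day replicate 2, day replicate 3 or any of the 3 night replicates. Spis21780 did not pass in 2, without day replicate 2 and in libraries thinned to the smallest, and the other 4 gene models passed in all 15.

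Spis11906, the CRY1 gene model with the most reads, stood at 1089.8, 1343 and 1139 CPM in day replicates 1, 2 and 3. In night replicates 1, 2 and 3 it stood at 208, 179 and 141 CPM. The lowest day library was thus 5.25 times the highest night library. Mean levels were 1190.5 ± 134 CPM by day and 176 ± 33.5 CPM by night (SD, n = 3), 6.77-fold higher by day (log2 fold change 2.76, standard error 0.25).

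Spis15188.t1, also named CRY1, had 287, 240.3 and 284 CPM in the day libraries and 40.8, 42.3 and 62.3 CPM in the night libraries. Night replicate 3 was the highest night library for this gene model and the lowest for Spis11906. The fold was 5.58 in favour of day (log2 fold change 2.48, standard error 0.21). Spis11907.t1, which carries the number next to Spis11906, had 559, 578 and 748 CPM by day and 259, 229 and 247 CPM by night. Its groups were also apart, but by less, at 2.56-fold (log2 fold change 1.36, standard error 0.22). Spis15188.t1 and Spis11907.t1 share the same best match, and reads that fit several CRY1 gene models equally well could have been placed on any of them, since the handling of such reads is not given in the sources used here.

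The fourth CRY1 gene model, Spis21780, whose best match is the human protein, ran the other way. It had 10.7, 16.0 and 27.7 CPM in the day libraries and 62.1, 55.9 and 72.4 CPM in the night libraries. Day replicate 3 stood well above the other day libraries and still at less than any night library. The mean was 18.1 ± 8.66 CPM by day and 63.5 ± 8.36 CPM by night (SD, n = 3), 3.34-fold higher by night (log2 fold change -1.74, standard error 0.27). These day values rest on 30, 25 and 188 reads, which carry counting errors of 18.3%, 20.0% and 7.29%. Without day replicate 3 the log2 fold change was -2.28.

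PHR, the photolyase gene model, had 27, 18 and 99 reads in the day libraries and 202, 130 and 207 in the night libraries. Scaled to depth these were 9.66, 11.5 and 14.6 CPM by day and 65.4, 67.9 and 81.1 CPM by night, so the lowest night library was 4.49 times the highest day library. The enzyme that repairs ultraviolet damage with light was therefore at its lower transcript level in samples taken near the end of the light phase. CRYD, the cryptochrome of the DASH type, differed least. It had 49.0, 29.5 and 34.7 CPM by day and 64.4, 78.3 and 69.7 CPM by night, 1.86-fold higher by night (log2 fold change -0.89, standard error 0.20). Its closest libraries were day replicate 1 and night replicate 1, 1.31-fold apart.

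**Figure D1:**
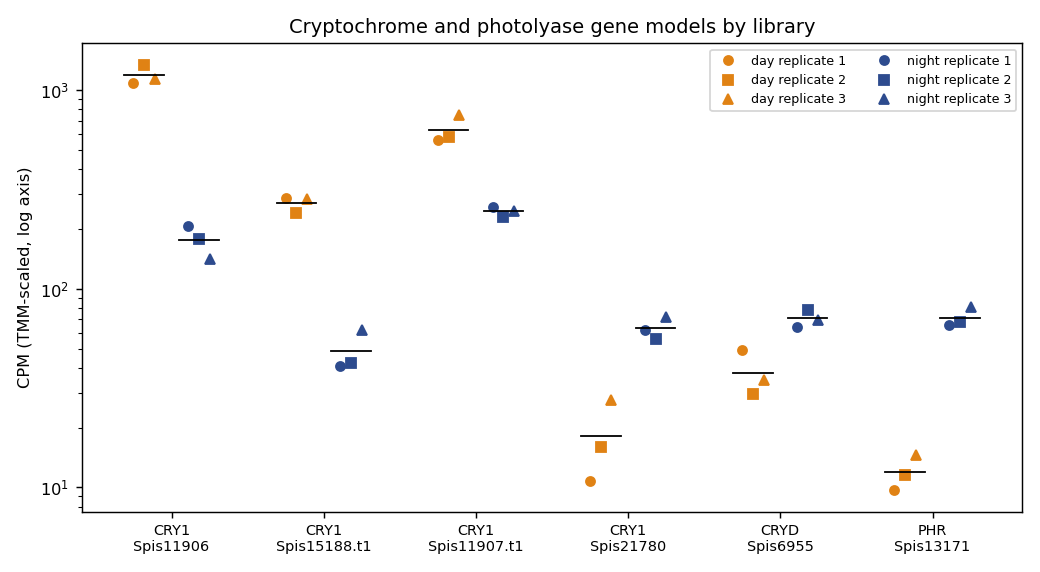
Level of each cryptochrome and photolyase gene model in CPM (log axis), with day libraries in orange, night libraries in blue, a marker shape for each replicate number and a black line at the group mean (n = 3). The 3 gene models on the left are higher by day and the 3 on the right higher by night, and CRYD has the narrowest gap.

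Shares within a library need no scaling between libraries. The 3 gene models that were lower by day (Spis21780, CRYD and PHR) together made up 3.46%, 2.57% and 3.42% of the family's reads in day replicates 1, 2 and 3. Their exact Clopper-Pearson 95% intervals were 3.00 to 3.98%, 2.07 to 3.16% and 3.14 to 3.72%. In night replicates 1, 2 and 3 the same gene models made up 27.4% (25.6 to 29.4%), 31.0% (28.4 to 33.6%) and 33.1% (30.9 to 35.4%). These gene models were pooled for being lower by day, so the gap between day and night intervals follows in part from that choice, and the intervals cover counting error only.

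The share of Spis11906 was 55.2% ± 4.98 by day and 26.0% ± 4.55 by night (SD, n = 3). That of PHR was 0.550% ± 0.0870 and 10.6% ± 1.35 (SD, n = 3). Spis11907.t1 is a case where level and share differ in direction: its CPM was higher by day, but its share was 29.1% ± 3.75 by day and 36.3% ± 1.01 by night (SD, n = 3). Among the 4 CRY1 gene models alone, Spis11906 held 56.5% ± 4.95 of the reads by day and 32.9% ± 5.20 by night, and Spis11907.t1 29.8% ± 3.84 and 46.0% ± 1.11 (SD, n = 3). The CRY1 reads were thus divided differently in day and night libraries, in a share that is not per length.

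**Figure D2:**
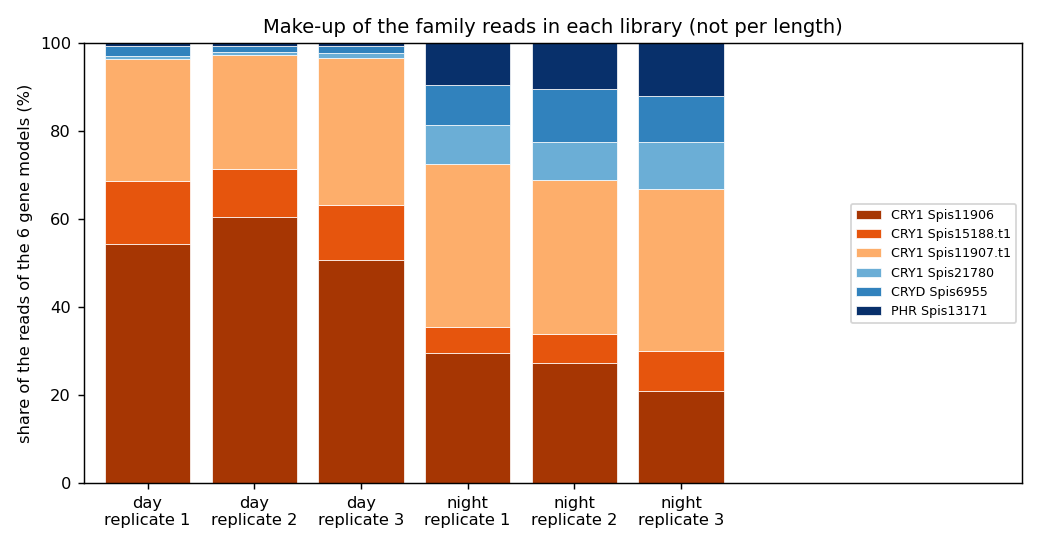
Share of the family's reads (percent, not per length) taken by each of the 6 gene models in each library, stacked to 100%. Orange tones mark gene models higher by day and blue tones those higher by night, and the blue part grows from 2.57 to 3.46% by day to 27.4 to 33.1% by night.

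The ratio of reads between members restates this shift from the same counts without any scaling, and coding length cancels when such a ratio is compared between libraries. PHR and Spis11906 differ in opposite directions, so a shift in their ratio follows from that. For every read on PHR there were 113, 116 and 78.2 reads on Spis11906 in the day libraries and 3.18, 2.63 and 1.74 in the night libraries. For Spis11906 over Spis11907.t1, the ratio was 1.95, 2.32 and 1.52 by day and 0.802, 0.779 and 0.570 by night. For Spis11906 over Spis15188.t1 the groups overlapped, with 3.80, 5.59 and 4.01 by day and 5.10, 4.22 and 2.26 by night. The proportion of Spis11906 to Spis15188.t1 thus did not separate the day libraries from the night libraries, unlike that of Spis11906 to Spis11907.t1.

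By replicate number, each of the 6 gene models had the same direction in 3 of 3 pairs of day and night libraries. This follows for any pairing where the groups do not overlap, so nothing is read from it. Only the size of the ratios is described. PHR was the most even, at 6.77-, 5.88- and 5.57-fold higher by night in replicate numbers 1, 2 and 3. Spis11906 was 5.25-, 7.52- and 8.08-fold higher by day. Spis15188.t1 had its largest ratio in number 1 and its smallest in number 3 (7.03-, 5.68- and 4.56-fold), the reverse of Spis11906. Spis11907.t1 was 2.16-, 2.52- and 3.02-fold higher by day. Spis21780 ranged widely, at 5.79-, 3.49- and 2.62-fold higher by night, as did CRYD, at 1.31-, 2.66- and 2.01-fold.

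**Figure D3:**
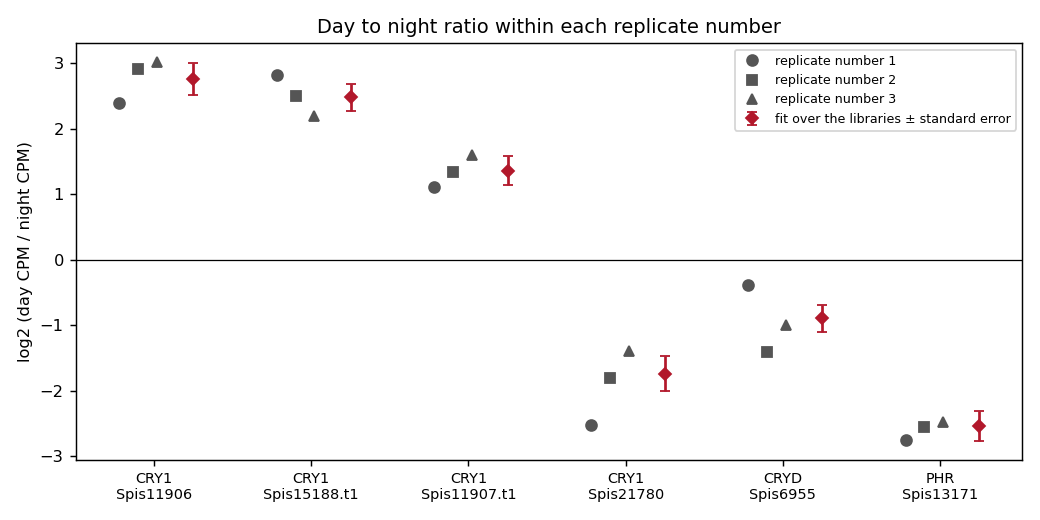
Log2 ratio of day to night CPM within each replicate number (grey markers) for each gene model, beside the log2 fold change fitted over all libraries with its standard error (red). All 3 markers of a gene model lie on the same side of 0, as they must where groups do not overlap, and those of PHR lie closest together.

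Spread among replicates entered the choice of the family, since the study's list rests on an adjusted p from these libraries, so it is described here and no test is drawn from it. With day and night accounted for, 0 of the 6 differed between replicate numbers 1, 2 and 3 in edgeR's quasi-likelihood fit, against 4.45% of all gene models, and 1 of the 6 had an unadjusted p under 0.05, against 12.7% of all. Nothing is read from these counts. The gene model under the unadjusted threshold was Spis21780, which was 1.60-fold higher in number 3 than in number 1. It passed the adjusted threshold without night replicate 1, without night replicate 3 and in libraries thinned to the smallest. In every other alternative it did not pass, DESeq2's likelihood ratio test and the fit without day replicate 3 among them. Day replicate 3, where Spis21780 was highest by day, was also the deepest library.

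The SD of log2 CPM within groups was 0.24 for PHR, close to the 0.20 that counting alone would give from its 683 reads. For Spis11906, with 14227 reads, the SD was 0.23 against 0.05 from counting, so nearly all of its spread lay between samples. Spis11907.t1 was the steadiest, at 0.17, and Spis21780 the most variable, at 0.50 against 0.18 from counting. The median SD over 15687 gene models with at least 100 reads was 0.29, from which nothing is read about a family chosen partly by its spread.

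**Figure D4:**
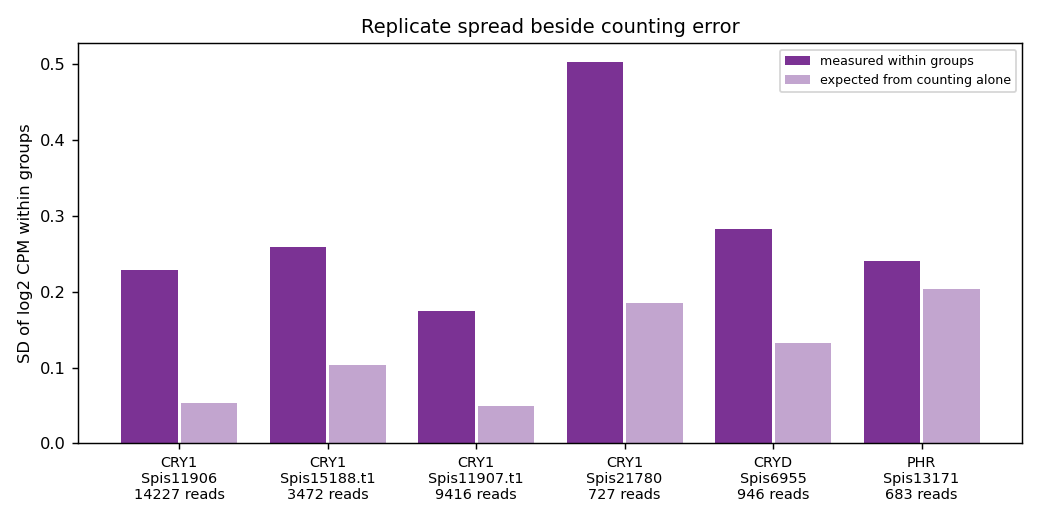
SD of log2 CPM within groups for each gene model (dark bars, pooled over day and night, n = 3 each) beside the SD expected from counting its reads (light bars). Spis21780 has the largest spread, at 0.50, and PHR is the gene model whose spread comes closest to counting error.

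Gene models whose numbers adjoin those of the family offer a comparison that the choice of members did not touch. Whether numbers follow the order of genes in the genome is not given in the sources used here. The closest gene models on each side, 2 before and 2 after each member, came to 20 besides the members, of which 19 had a read. In edgeR's quasi-likelihood test 0 of the 19 passed between day and night (background 0.666%), 0 had an unadjusted p under 0.05 (1294 of 24180 over all gene models), a count of 19 being too few to set apart from that share, and 0 passed in DESeq2, limma-voom or the fit with the replicate block. Their log2 fold changes ran from -0.34 to 0.42 in the 18 with at least 10 reads, with a median over the 19 of 0.03. Spis11905 and Spis11908, on either side of the Spis11906 and Spis11907.t1 pair, had log2 fold changes of -0.08 (standard error 0.47) and 0.14 (standard error 0.18). Spis11908 stood at 115 ± 13.9 CPM by day and 105 ± 10.5 CPM by night (SD, n = 3), in the same libraries in which its neighbour Spis11907.t1 differed 2.56-fold. Spis13170 and Spis13172, beside PHR, had -0.26 (standard error 0.19) and -0.13 (standard error 0.34).

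Each gene model was also set beside the gene models whose profile over the 6 libraries was most like it, by the root mean square difference of centred log2 CPM among 15687 gene models. Nearest to Spis11906 were ETS2 (Spis5906), PAX3B (Spis374) and PAX3 (Spis375), all named for transcription factors, at 0.15, 0.27 and 0.33 log2 units. Nearest to Spis15188.t1 were SIK1 (Spis17316), a protein kinase, HEY (Spis7206), a basic helix-loop-helix repressor, and PAX3, at 0.30, 0.30 and 0.31. Spis11907.t1 lay beside COT2 (Spis14503), a nuclear receptor, CP3AB (Spis15558.t2), a cytochrome P450, and GYS (Spis3506.t1), named for glycogen synthase, at 0.14, 0.15 and 0.21. The profile nearest to PHR was that of DHR12 (Spis3584), a dehydrogenase by name, at 0.08, followed by PTHD3 (Spis18759) at 0.17 and the unnamed Spis23685 at 0.29. Close to Spis21780 were PTHD3 (Spis1022) and MRC1 (Spis5178.t1), at 0.30 and 0.33. CRYD was nearest to Spis6118, Spis1420.t1 and Spis8707, at 0.08, 0.14 and 0.14, and none of these 3 has a name in the sources. Of the 18 entries, 15 belong to the study's list of 151, which was chosen on the same difference. The smallest distances lie below the SD of log2 CPM from counting alone, which was 0.20 for PHR and 0.13 for CRYD. Which gene models come out nearest may therefore rest on counting error. The members closest to each other were Spis21780 and PHR (0.42) and Spis11906 and Spis15188.t1 (0.42).

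Of 5 other clock and DNA repair genes taken from the study's list, 3 were higher and 2 lower in every day library than in any night library. Over all gene models with a read, 5.05% were higher and 5.04% lower in this way. Nothing is read from the count, since the list was chosen on this contrast. CLOCK (Spis3527), the partner of BMAL1 in the animal clock, had 21.1, 19.2 and 24.4 CPM by day and 7.44, 4.70 and 11.7 CPM by night, so its lowest day library was 1.64 times its highest night library. CREM (Spis4729), a cAMP-responsive transcription factor, had 76.6, 72.4 and 119 CPM by day and 35.6, 32.9 and 51.3 CPM by night. SIK1, a kinase that limits light resetting of the clock in mice, had 183, 199 and 259 CPM by day and 48.9, 48.0 and 56.4 CPM by night. All 3 were thus higher by day, like most of the CRY1 gene models. HLF (Spis1683), a leucine zipper factor of the PAR family, had 0.716, 1.92 and 1.18 CPM by day, from 2, 3 and 8 reads, and 209, 214 and 171 CPM by night. XPC (Spis5282), which recognises damage for nucleotide excision repair, had 10.4, 7.69 and 6.03 CPM by day and 25.9, 47.5 and 44.2 CPM by night, the direction of PHR. All 5 come from the same list as the family, so these directions are descriptions. Clock and repair genes outside that list could not be picked out, because 0 entries of the RefSeq table used here carry a coral gene model number.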

How the data were processed

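RNA was measured in 3 day and 3 night libraries, grouped by title. The authors aligned SOLiD colorspace reads to the longest coding sequences with Bowtie, whose version the submitters give as 1.2.3, and counted them with a Python script. The deposited values are whole-number counts, neither normalized nor pooled. Where an ID begins longer IDs (2371 IDs, 9.20%), its deposited value also contained their reads. Subtraction took the total from 68146012 to 18605408 reads and left the 6 members as deposited.

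Day was compared with night over 24180 gene models with edgeR 4.0.16 in R 4.3.3 (TMM factors 0.974 to 1.027, robust quasi-likelihood F test, two-sided, Benjamini-Hochberg adjusted p under 0.05). A standard error is the log2 fold change over the square root of F. The members and lists were chosen with earlier results of these data known. Day and night libraries of equal number deviated together (r = 0.23, 0.19 and 0.37 across 14262 gene models, against -0.27 to 0.09 for unequal numbers). Deviations were taken from each group's mean, so values for unequal numbers are pushed down where those for equal numbers are up. The unequal numbers are thus no independent comparison. Numbers were treated as pairs in the ratios by replicate number and in the fit with the replicate block. The main fit of day against night has no replicate term, so its fold changes, standard errors and calls ignore this pairing. Any 2 libraries differed beyond sampling noise (chi-square over its degrees of freedom 4.55 to 16.1). Fits were checked on simulated data. Named genes are the members, neighbours that passed, CLOCK, HLF, CREM, SIK1, XPC and the 3 closest profiles per member among gene models with at least 100 reads, of which 1 is not reported here; Spis11905, Spis11908, Spis13170 and Spis13172 were picked after their values were seen. Alternatives were RLE factors, library totals, low-count filters, deposited values, thinned libraries, DESeq2 1.42.0, limma-voom (limma 3.58.1), the block and leaving out each library. Tissue markers were not checked, as gene models off the study's list carry no name. Figures used matplotlib 3.10.9 in Python 3.11.15.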

Additional observations from a re-analysis of the deposited data

How the results depend on the processing

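All 90 alternative log2 fold changes of the family kept their sign, and 89 moved by less than the replicate SD. As no member overlapped between the groups, leaving out a library could hardly reverse a sign. TMM factors of 0.974 to 1.027 left little room for scaling to move a value. Nothing is read from these counts. Leaving out each library gave 2.63 to 2.90 for Spis11906, 2.36 to 2.71 for Spis15188.t1, 1.22 to 1.44 for Spis11907.t1, -2.28 to -1.47 for Spis21780, -1.12 to -0.77 for CRYD and -2.76 to -2.40 for PHR. Taken among the 4 CRY1 gene models, the day minus night share was 23.6 points for Spis11906, -16.3 for Spis11907.t1 and -11.1 for Spis21780, against 29.2, -7.23 and -8.57 among all 6. Among all gene models, 161 were called, 79 with limma-voom, 409 with the replicate block and 94 to 233 with a library left out (97 without night replicate 1 and 94 without night replicate 2). The block changed no call of a member or numbered neighbour. Between replicate numbers 0 members were called, 1 in thinned libraries and 0 to 1 with a library left out (an alternative added after seeing the data). Among all gene models, 1077 were called between numbers, 428 with filterByExpr, 640 with at least 10 reads, 314 with DESeq2 and 639 to 1039 with a library left out (710 without day replicate 1, 639 without day replicate 2). Depth limits the day values of PHR and Spis21780, whose smallest counts were 18 and 25 reads.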

Other observations

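In the table as deposited, rows whose ID begins the ID of a family member carry that member's reads. Spis1190 is the clearest case, as its value also counts the reads of Spis11906 and Spis11907.t1 among 10 longer IDs. As deposited it held 6001, 3723 and 17110 reads in the day libraries and 3172, 1743 and 2427 in the night libraries, a ratio of day to night of 2.47 once divided by library size. The CRY1 pair made up 76.1% of these reads by day and 43.8% by night. With the longer IDs subtracted, 610, 308 and 1392 reads were left by day and 800, 384 and 500 by night, a ratio of 0.956. Spis1518 held the reads of Spis15188.t1 among 10 longer IDs in the same way, with 1463, 766 and 3793 reads by day and 828, 507 and 812 by night, and was left with 5, 2 and 4 reads by day and 0, 0 and 0 by night. Reads of Spis15188.t1 made up 51.6% of its deposited day reads and 17.0% of its deposited night reads.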
